A study of Homo sapiens with 3 samples.

Results

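The genes examined were MYC and 8 genes of the p53 pathway and of the G1 phase of the cell cycle, CCND1, CCNE1, CDK4, CDKN1A, CDKN2A, RB1, E2F1 and MDM2, which makes 9 of the 19689 protein-coding genes with a protein-coding transcript in GENCODE. They were listed by name, and every peak within 1 kb of one of their transcription start sites (TSS), elsewhere in the gene or within 50 kb of it was collected. The peaks came from ChIP-seq in HuCCT1, an established cholangiocarcinoma cell line, with an antibody against Strawberry Notch 1 (SBNO1), an antibody against TAF4, which belongs to the basal factor TFIID, or control IgG. HuCCT1 cells were used for all 3 libraries, and no treatment is named for any of them. For each antibody, immunoprecipitates of several biological replicates had been pooled, so there was 1 library each, no spread between replicates is known and no difference was tested. The files listed peaks on GRCh38 with a score and no reads, so the depth of the libraries is unknown.

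In G1, mitogens induce D-type cyclins such as cyclin D1, which activate CDK4 and CDK6 to phosphorylate the retinoblastoma protein RB1 and so release E2F transcription factors, whose targets include the genes for cyclin E1 and for E2F1 itself. The inhibitors p16, encoded by CDKN2A, and p21, encoded by CDKN1A, hold the kinases back. MYC drives growth and entry into the cycle, while p53 induces CDKN1A and also MDM2, the ubiquitin ligase that degrades p53. TFIID is the factor that recognises core promoters and starts assembly of the RNA polymerase II machinery.

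SBNO1 was found at the promoters of MYC, CDK4, CDKN2A and RB1, and TAF4 at those of MYC, CCND1, CDK4, CDKN1A, CDKN2A and MDM2. A promoter peak of SBNO1 was thus present at 4 of the 9 genes, where 25.7% of all protein-coding genes had one. For TAF4 it was 6 of 9, where the share of all genes was 31.9%. No gene had an IgG promoter peak, a feature of 1.41% of all genes. These shares are those of the deposited lists, in which 5057 genes had an SBNO1 and 6280 a TAF4 promoter peak. The study itself reported far fewer promoters bound within 1 kb for both proteins, and the reason was not tested. The calls given here are therefore not the study's own set of bound genes. Both proteins marked MYC, CDK4 and CDKN2A (3 of 9; 22.6% of all genes), SBNO1 without TAF4 marked only RB1 of the 9 (1 of 9; 3.08%), and TAF4 without SBNO1 marked CCND1, CDKN1A and MDM2 (3 of 9; 9.29%). CCNE1 and E2F1 had a promoter peak of neither protein (2 of 9; 65.0%). At a distance of 3 kb, SBNO1 and TAF4 together marked 5 of the 9 genes instead of 3. With only peaks at or above the median score of their list, SBNO1 marked 0 of the 9 and TAF4 marked 4. With 9 genes these counts are descriptions, and the exact 95% interval of the SBNO1 share ran from 13.7% to 78.8%, that of the TAF4 share from 29.9% to 92.5%. These intervals cover counting error only. A gene with more coding TSS has more places for a promoter peak, and the shares were not adjusted for that.

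Over the whole windows there were 20 SBNO1, 21 TAF4 and 0 IgG peaks. They merged into 26 regions, of which 14 held both proteins, 5 SBNO1 alone and 7 TAF4 alone. Of the SBNO1 peaks, 5 lay at promoters, 2 elsewhere in a gene and 13 in the flanks, and for TAF4 these numbers were 6, 2 and 13. An SBNO1 peak somewhere in the window was found for 7 of the 9 genes (62.3% of all genes), with CCNE1 and MDM2 as exceptions, and a TAF4 peak for 7 of 9 (61.7%), with CCNE1 and RB1 as exceptions, while an IgG peak was found for 0 of 9 (6.76%). In the flanks alone, 5 of the 9 genes had SBNO1 (48.9% of all genes), the same 5 had TAF4 (47.1%) and 0 had IgG (4.77%): MYC, CCND1, CDK4, CDKN2A and E2F1. Overlap with TAF4 was seen for 15 of these 20 SBNO1 peaks (75.0%, exact 95% interval 50.9% to 91.3%), and the value for the whole SBNO1 list, 59.7%, lay inside that interval. In the other direction, 14 of 21 TAF4 peaks (66.7%, 43.0% to 85.4%) met an SBNO1 peak, against 75.2% in the whole list. Both intervals treat the peaks as independent, although several lay at the same gene, and no difference from the whole lists was tested. None of the 41 peaks overlapped an IgG peak, where 8.57% of all SBNO1 and 10.9% of all TAF4 peaks did. The maps of the 9 genes show the 14 of 26 regions where peaks of both proteins met, and that several genes had more peaks in their flanks than at the TSS.

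**Figure D1:**
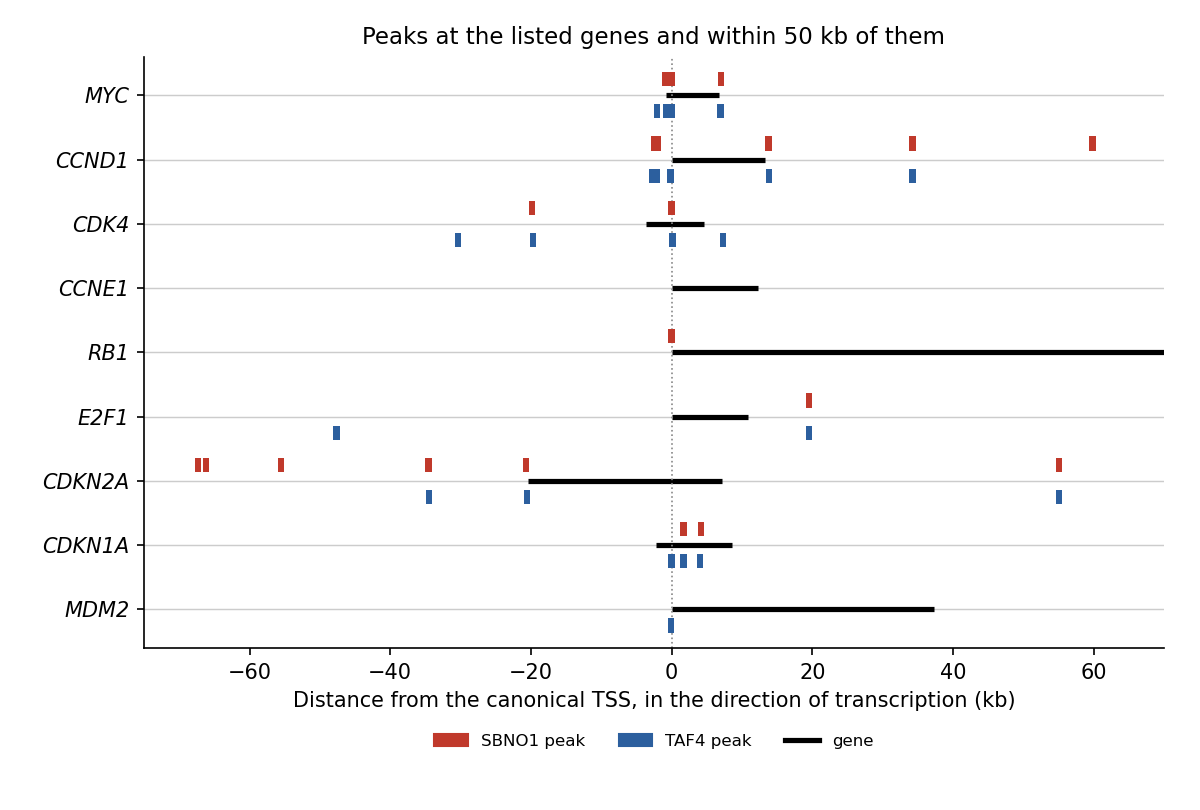
Peaks of SBNO1 (above the line) and TAF4 (below the line) in and around each of the 9 genes, by distance from the canonical TSS in kb with transcription to the right; black lines are genes, that of RB1 running past the edge, and peaks narrower than 0.9 kb are drawn 0.9 kb wide so that they can be seen. CDKN2A and CCND1 carried the most SBNO1 peaks, with 6 and 5, CCNE1 carried none, and no IgG peak lay in any window.

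The score of a peak needs its width beside it. In all 3 lists, the product of width and score divided by 1000 was never below 200 for a peak under the cap of 1000, so a narrow peak was listed only with a high score. Scores of peaks of unequal width are therefore not compared with each other, and widths are given with them. The median SBNO1 peak within 1 kb of a TSS was 420 bp wide with a score of 850, and the median TAF4 peak there 418 bp wide with a score of 1000.

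MYC, the transcription factor of growth genes (ENSG00000136997.22, chr8:127735434-127742951, plus strand), had the widest TAF4 promoter peak of the 9 genes. Its 13 coding TSS spread over the first part of the gene. One SBNO1 peak of 505 bp (chr8:127735054-127735558, score 518) covered the 3 most upstream TSS. Another of 672 bp (chr8:127735886-127736557, score 814) covered 4 TSS, and its centre lay at -10 bp from the canonical TSS at chr8 position 127736231. The gap between them was bridged in the TAF4 library by a single peak of 1657 bp at the score cap (chr8:127734999-127736655), which contained both SBNO1 peaks whole and covered 8 of the 13 TSS. That TAF4 peak was wider than 99.8% of all TAF4 peaks within 1 kb of a TSS. At least 2 SBNO1 promoter peaks, as at MYC, were found at 3.07% of all genes, a share not adjusted for the number of coding TSS per gene.

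Outside the MYC promoter, 1 pair of peaks lay just past the end of the gene, with SBNO1 over 483 bp (score 887) and TAF4 over 309 bp (score 656). A further TAF4 peak of 364 bp (score 622), with no SBNO1 peak, was located upstream at chr8:127734012-127734375, within 1 kb of a TSS of the noncoding gene CASC11.

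CDK4 (ENSG00000135446.17, chr12:57747727-57756013, minus strand), the kinase partner of the D-type cyclins, was the other gene with a wide block of both proteins. SBNO1 covered 863 bp with a score of 777 (chr12:57751885-57752747) and 7 of the 9 TSS. TAF4 covered 1015 bp with a score of 981 (chr12:57751703-57752717) and 8 of the 9 TSS, and both peaks shared 833 bp. Compared with peaks near any TSS of the same list, the SBNO1 peak was wider than 95.4% and the TAF4 peak wider than 97.1%.

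The CDK4 promoter window, from 250 bp before to 50 bp after the canonical TSS, lay wholly inside both peaks. Its sequence from GRCh38 (chr12:57752261-57752560, read on the minus strand, upstream and 5′ exon sequence) is shown because it was the only one of the 9 promoter windows with an E-box, CACGTG, the letters bound by MYC and MAX.
CDK4 promoter window: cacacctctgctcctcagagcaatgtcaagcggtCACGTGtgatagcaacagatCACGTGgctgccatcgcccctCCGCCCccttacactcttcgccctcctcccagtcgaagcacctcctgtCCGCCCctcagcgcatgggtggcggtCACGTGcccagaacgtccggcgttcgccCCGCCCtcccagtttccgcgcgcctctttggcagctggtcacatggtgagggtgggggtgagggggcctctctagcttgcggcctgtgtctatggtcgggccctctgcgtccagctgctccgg
Capitals mark 3 E-boxes, which began at positions -216, -196 and -101 relative to the TSS, and 3 matches to GGGCGG on either strand, the letters of KLF and SP factors. An E-box was present in 8.75% and GGGCGG in 61.6% of 19688 protein-coding promoter windows of this length. Such a match describes the sequence and does not show that a factor is bound.

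The other peaks around CDK4 lay at promoters of neighbouring genes. SBNO1 (200 bp) and TAF4 (556 bp), both at the score cap, met at a promoter region shared by METTL1, a tRNA methyltransferase gene, and EEF1AKMT3. TAF4 without SBNO1 marked TSPAN31 (285 bp, score 765) and TSFM (226 bp, score 1000).

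CCND1 (ENSG00000110092.4, chr11:69641156-69654474, plus strand) encodes cyclin D1 and showed the opposite arrangement, with SBNO1 on both sides of the gene and none at the promoter. TAF4 covered both TSS with a peak of 666 bp and a score of 981 (chr11:69640650-69641315), in which no SBNO1 peak was listed. The nearest SBNO1 peak ended 1.72 kb upstream of a TSS, where a pair of SBNO1 peaks (347 bp with score 649, and 446 bp with score 694) overlapped a pair of TAF4 peaks (606 bp with score 415, and 347 bp with score 916). Just past the end of the gene, SBNO1 (766 bp) and TAF4 (506 bp) overlapped with scores of 1000 each. The promoter window (chr11:69640906-69641205, plus strand) is given as the example of a promoter with TAF4 alone, since all of its bases lay inside the TAF4 peak.
CCND1 promoter window: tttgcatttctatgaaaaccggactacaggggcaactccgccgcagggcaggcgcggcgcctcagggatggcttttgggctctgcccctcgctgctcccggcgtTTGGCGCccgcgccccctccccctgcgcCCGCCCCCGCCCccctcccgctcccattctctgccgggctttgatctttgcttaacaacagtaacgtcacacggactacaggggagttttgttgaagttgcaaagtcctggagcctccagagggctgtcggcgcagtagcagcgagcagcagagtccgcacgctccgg
Capitals mark an E2F match, TTGGCGC, which began at position -146 relative to the TSS, and 2 adjoining matches to GGGCGG on the other strand. TTGGCGC or TTCCCGC occurred in 12.2% of all promoter windows and in those of 5 of the 9 genes, MYC, CCND1, RB1, E2F1 and MDM2. The TATA letters, TATAAA, were in the window of MYC (9.65% of all windows) and in no other of the 9.

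Further downstream of CCND1, SBNO1 (301 bp, score 929) and TAF4 (258 bp, score 1000) overlapped at the promoter of LTO1, and a last SBNO1 peak of 628 bp (score 623) had no TAF4 peak. In total, 5 SBNO1 and 5 TAF4 peaks lay in the CCND1 window, numbers that 9.18% and 7.42% of all genes reached.

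CCNE1 (ENSG00000105173.14, chr19:29811991-29824312, plus strand), the gene for cyclin E1, stood at the other end. No peak of any library lay in its window, as for 30.2% of all genes. The nearest SBNO1 peak was 2556 kb away, a distance reached or exceeded at 0.787% of genes, and the nearest TAF4 peak 599 kb away (7.43% of genes). None of the 6 other protein-coding genes within 500 kb had a promoter peak of SBNO1 or TAF4, so the lack of peaks covered the whole neighbourhood and not the cyclin gene alone. Whether reads could be mapped there as elsewhere was not tested. Its promoter window (chr19:29811741-29812040, plus strand) is shown for contrast with the bound promoters.
CCNE1 promoter window: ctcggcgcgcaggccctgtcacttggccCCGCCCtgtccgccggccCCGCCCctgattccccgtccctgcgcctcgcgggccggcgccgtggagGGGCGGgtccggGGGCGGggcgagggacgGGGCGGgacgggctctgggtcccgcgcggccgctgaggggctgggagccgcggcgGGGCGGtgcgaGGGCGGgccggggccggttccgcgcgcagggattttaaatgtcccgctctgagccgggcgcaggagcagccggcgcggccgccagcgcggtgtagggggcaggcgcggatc
Capitals mark 7 matches to GGGCGG, the most among the 9 genes, in a window with 81.0% G and C. The median over all genes was 63.7%, at CDK4 the value was 66.0% and at RB1 69.7%. GGGCGG was present in the windows of all 9 genes, with and without a peak.

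The CDK inhibitor CDKN1A (ENSG00000124762.14, chr6:36676460-36687337, plus strand), the main transcriptional target of p53 in cell cycle arrest, carried TAF4 at the promoter and both proteins in the gene. A TAF4 peak of 300 bp at the score cap (chr6:36678529-36678828) covered 3 of the 5 TSS with the canonical one at position 36678714. No SBNO1 peak overlapped it, and the nearest one began 1.41 kb from a TSS. DINOL, a noncoding RNA gene of the DNA damage response, also had a TSS within 1 kb of this TAF4 peak. The promoter window (chr6:36678464-36678763, plus strand), with 235 of 300 bp in the TAF4 peak, reads as follows.
CDKN1A promoter window: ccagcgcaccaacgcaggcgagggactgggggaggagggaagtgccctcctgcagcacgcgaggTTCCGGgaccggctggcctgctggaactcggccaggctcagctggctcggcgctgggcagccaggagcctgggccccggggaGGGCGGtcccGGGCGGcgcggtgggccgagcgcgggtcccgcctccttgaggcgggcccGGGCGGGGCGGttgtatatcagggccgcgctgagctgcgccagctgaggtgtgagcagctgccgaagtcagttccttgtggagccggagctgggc
Capitals mark 1 ETS match (CCGGAA on the other strand, in 22.7% of all windows) and 4 matches to GGGCGG, the last pair of which overlapped by 1 base.

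In the body of CDKN1A, SBNO1 and TAF4 overlapped at both of their sites, the peak centres of which lay in introns. The upstream site had SBNO1 over 587 bp (chr6:36680134-36680720, score 726) and TAF4 over 637 bp (score 890). The downstream site had SBNO1 over 446 bp (chr6:36682652-36683097, score 918) and TAF4 over 641 bp (score 671). CDKN1A was the only one of the 9 genes with a gene body peak, which 14.8% of all genes had for SBNO1 and 9.91% for TAF4. No IgG peak lay in the body of any of the 9 genes (1.12% of all genes). Within the central 300 bp of the upstream gene body site lay a match to TGACTCA, the AP-1 letters, shown with 20 bases on both sides (chr6:36680513-36680559, plus strand).
CDKN1A gene body site: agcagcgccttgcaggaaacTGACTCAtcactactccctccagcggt
The decamer that makes up p53 response elements was matched 8 times within 5 kb of the canonical TSS of CDKN1A, where the median over all genes was 2 and 92.0% of genes had at least 1. Of these, 1 lay in a peak, at chr6:36682653-36682662 in an untranslated exon, where SBNO1 and TAF4 overlapped. It sat at the very edge of the SBNO1 peak, which started at position 36682652. The most upstream promoter region, with a match at chr6:36676449-36676458 (-2265 from the TSS), had no peak within 2071 bp for TAF4 and 3676 bp for SBNO1.

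CDKN2A (ENSG00000147889.18, chr9:21967752-21995301, minus strand) makes p16 and, from another first exon far upstream, p14ARF, which inhibits MDM2. Both proteins were placed at the upstream TSS group and not at that of p16. SBNO1 covered 589 bp (chr9:21995248-21995836, score 567) with 2 TSS and TAF4 258 bp (chr9:21995293-21995550, score 901) with 1 TSS. The antisense RNA gene CDKN2B-AS1 also started within 1 kb, so the peaks cannot be assigned to one direction of transcription. The canonical TSS of p16 lay 20.4 kb from the nearest peak of either protein. Counting 1 TSS per gene would therefore leave CDKN2A unmarked. The part of the upstream promoter covered by both proteins (chr9:21995293-21995550, minus strand) held none of the motif letters searched.
CDKN2A upstream promoter: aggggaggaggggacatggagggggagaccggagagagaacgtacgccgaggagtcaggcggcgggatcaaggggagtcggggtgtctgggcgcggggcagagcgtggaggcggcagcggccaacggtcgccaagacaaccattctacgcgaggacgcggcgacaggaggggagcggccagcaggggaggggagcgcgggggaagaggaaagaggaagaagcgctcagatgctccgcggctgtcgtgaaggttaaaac

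CDKN2A had 6 SBNO1 peaks in its window, the most of the 9 genes, which 5.75% of all genes reached. The neighbouring CDKN2B, encoding the inhibitor p15, was marked by both proteins at its promoter, SBNO1 over 367 bp (score 913) and TAF4 over 389 bp (score 1000). On the far side of CDKN2A, SBNO1 (221 bp, score 1000) and TAF4 (258 bp, score 903) overlapped again. Beyond CDKN2B lay 3 SBNO1 peaks without TAF4, with widths of 478, 330 and 332 bp and scores of 689, 744 and 644. The first of them held an AP-1 match, TGAGTCA (chr9:22030427-22030473, minus strand).
CDKN2A distal site: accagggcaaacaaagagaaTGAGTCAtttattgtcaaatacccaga
The nearest IgG peak lay 57.3 kb from a TSS of CDKN2A.

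RB1 (ENSG00000139687.16, chr13:48303744-48599436, plus strand), which restrains E2F factors, was the only one of the 9 genes with SBNO1 and without TAF4 at its promoter. The SBNO1 peak spanned 426 bp with a score of 562 (chr13:48303509-48303934) and covered 3 of the 4 TSS, and the divergent noncoding gene RB1-DT also started within 1 kb. It was the only peak of any library in the window around this long gene, and the nearest TAF4 peak was 208 kb away, as far or farther at 19.1% of genes. The promoter window (chr13:48303501-48303800, plus strand), of which 292 bp lay in the SBNO1 peak, is shown as the case of SBNO1 alone.
RB1 promoter window: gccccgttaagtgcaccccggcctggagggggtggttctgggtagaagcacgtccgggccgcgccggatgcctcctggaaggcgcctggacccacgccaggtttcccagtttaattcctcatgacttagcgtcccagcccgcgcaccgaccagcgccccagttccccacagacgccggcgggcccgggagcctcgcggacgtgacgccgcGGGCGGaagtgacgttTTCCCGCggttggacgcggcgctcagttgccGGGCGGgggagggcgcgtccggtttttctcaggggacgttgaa
Capitals mark an E2F match, TTCCCGC, that began at position -24 relative to the TSS, and 2 matches to GGGCGG.

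E2F1 (ENSG00000101412.13, chr20:33675477-33686385, minus strand), the transcription factor released by phosphorylated RB1, had no peak at its single TSS or in the gene. The nearest peaks lay past its end, at the promoters of NECAB3 and ACTL10, 19.4 kb from the TSS for SBNO1 (354 bp) and 19.3 kb for TAF4 (381 bp), both at the score cap. A TAF4 peak of 289 bp (score 916) was the only other one in its window. The promoter window (chr20:33686336-33686635, minus strand) follows as that of a gene without a promoter peak, and it held many of the letters searched.
E2F1 promoter window: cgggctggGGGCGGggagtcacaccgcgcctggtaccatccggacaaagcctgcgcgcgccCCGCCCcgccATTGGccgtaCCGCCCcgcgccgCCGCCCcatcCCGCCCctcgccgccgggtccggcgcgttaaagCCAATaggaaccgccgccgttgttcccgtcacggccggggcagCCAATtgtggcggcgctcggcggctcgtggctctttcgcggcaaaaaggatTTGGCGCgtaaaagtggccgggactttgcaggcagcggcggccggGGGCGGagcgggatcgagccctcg
Capitals mark an E2F match, TTGGCGC, from position -19, 6 matches to GGGCGG and 3 to CCAAT, the letters of NFY, which 36.1% of all windows held.

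MDM2 (ENSG00000135679.27, chr12:68808177-68845544, plus strand) had a single peak in its window, a TAF4 peak of 303 bp with a score of 687 (chr12:68807904-68808206) over 2 of its 8 TSS. These are the upstream TSS, with the canonical one at position 68808177. The downstream TSS of the first intron, where the p53-responsive promoter of MDM2 is located, lay 0.796 to 1.02 kb from the peak edge and was not covered. Within 5 kb of the canonical TSS of MDM2 the p53 decamer was matched 2 times, the same as the median over all genes. Only exact matches were searched, so p53 sites that depart from the decamer were not counted. The matches began 1934 and 3018 bp downstream of the canonical TSS. Of these matches, 0 lay in a peak. The nearest SBNO1 peak was 121 kb away, as far or farther at 26.6% of genes. Of the promoter window (chr12:68807927-68808226, plus strand), 280 bp lay in the TAF4 peak.
MDM2 promoter window: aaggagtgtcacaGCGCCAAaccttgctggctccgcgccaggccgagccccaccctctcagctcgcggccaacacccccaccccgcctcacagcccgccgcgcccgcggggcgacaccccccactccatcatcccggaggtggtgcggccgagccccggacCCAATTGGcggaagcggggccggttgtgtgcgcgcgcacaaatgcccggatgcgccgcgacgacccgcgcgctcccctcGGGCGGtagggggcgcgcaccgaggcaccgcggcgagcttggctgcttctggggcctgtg
Capitals mark an E2F match on the other strand, a pair of overlapping NFY matches and 1 match to GGGCGG.

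The wider surroundings were counted within 500 kb of each gene, a distance chosen after the data had been seen. MYC had 32 SBNO1, 19 TAF4 and 3 IgG peaks there, numbers reached by 2.79%, 11.9% and 6.41% of all genes. For CCND1 there were 36, 30 and 5, reached by 1.89%, 2.27% and 2.47%. CDKN2A had 34, 20 and 2, reached by 2.29%, 10.5% and 11.6%. The 3 genes with the most SBNO1 peaks were thus also those with the most IgG peaks, whose part in the counts was not tested. CDKN1A had 17 SBNO1 peaks (reached by 19.5% of genes), E2F1 11 (38.3%), CDK4 9 (46.8%), RB1 3 (79.8%), MDM2 2 (86.2%) and CCNE1 0. Of these, only CDK4 had an IgG peak within that distance, and it had 1.

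The promoter maps show how the peaks sat on the TSS. SBNO1 covered 7 of 13 TSS at MYC, 7 of 9 at CDK4, 3 of 4 at RB1 and 2 of 10 at CDKN2A. TAF4 covered 8, 8, 0 and 1 of these. All SBNO1 promoter peaks of the 9 genes were wider than the SBNO1 promoter median of 420 bp, with widths of 426 to 863 bp, and their scores ran from 518 to 814. Scores of the TAF4 promoter peaks ran from 687 to 1000. A comparison of scores between the lists was not made, because their scaling was not stated in the sources used here.

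**Figure D2:**
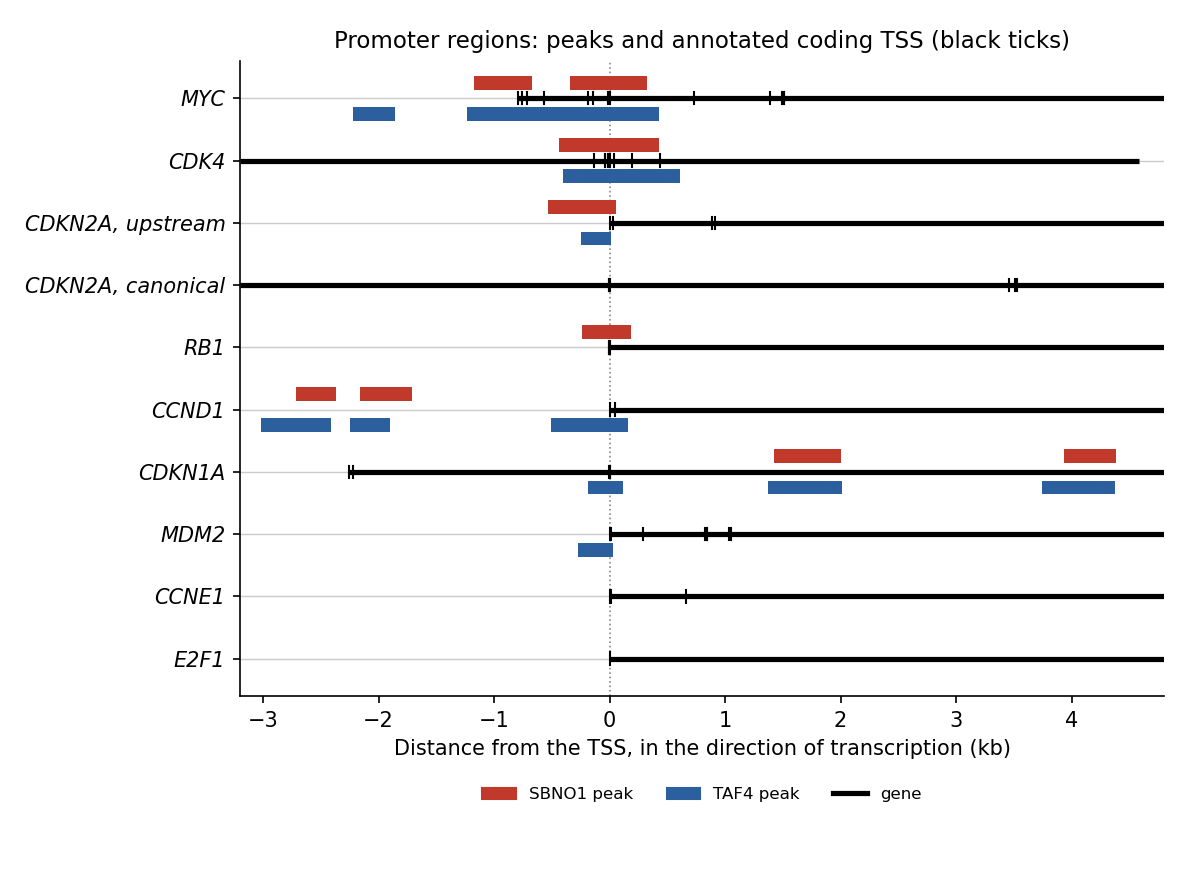
Peaks of SBNO1 (above the line) and TAF4 (below the line) around the canonical TSS of the 9 genes, and around the upstream TSS of CDKN2A in a row of its own, by distance in kb with transcription to the right; black lines are genes and ticks mark coding TSS. Peaks are drawn to scale, so the TAF4 peak of 1657 bp at MYC is seen to contain both SBNO1 peaks, and RB1 shows SBNO1 alone.

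**Figure D3:**
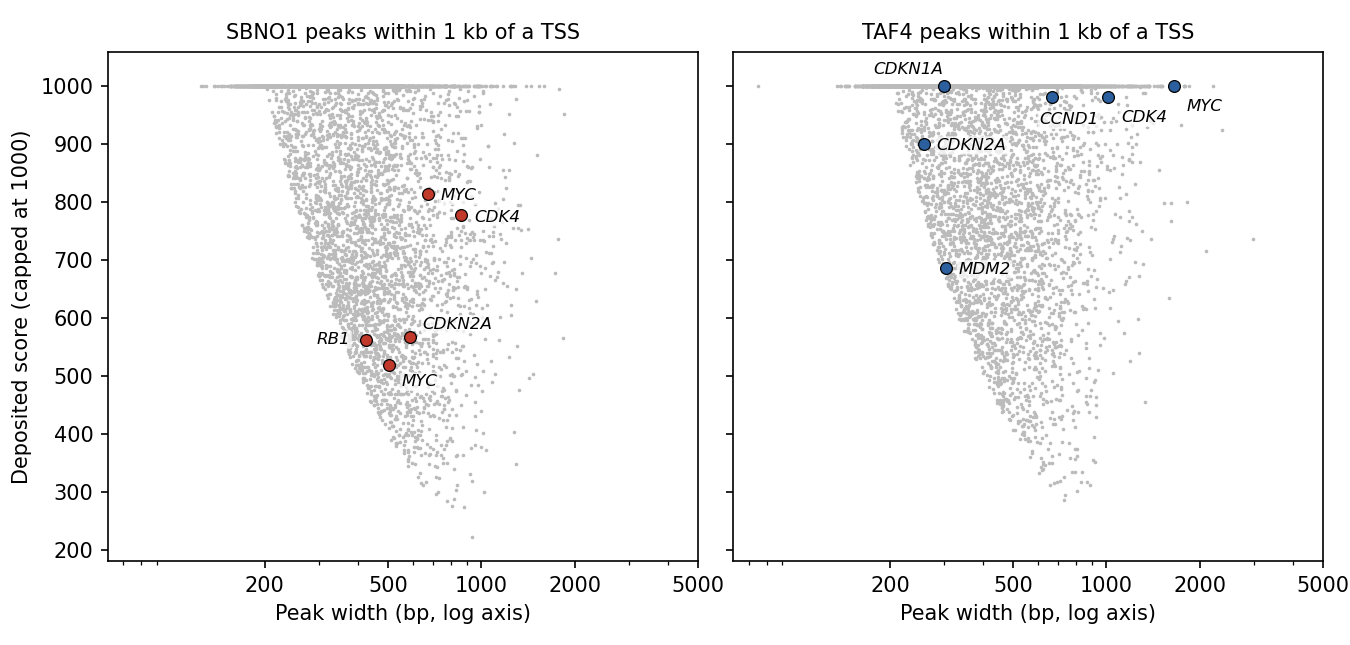
Width in bp on a log axis against score for all peaks within 1 kb of a TSS (grey) and for the promoter peaks of the 9 genes (coloured and named), for SBNO1 and TAF4. Below the cap of 1000, the empty lower left corner follows the bound of 200 on the product of width and score divided by 1000, and the SBNO1 peaks of MYC, CDK4, CDKN2A and RB1 lie at widths above 420 bp and scores of 814 or lower.

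AP-1 letters were looked for in the peaks of both proteins. TGACTCA or TGAGTCA lay within the central 300 bp of 3 of the 11 SBNO1 peaks farther than 1 kb from any coding TSS (44.0% of all such SBNO1 peaks) and 2 of 9 TAF4 peaks (39.1%). They were the peaks past the end of MYC, in the upstream gene body site of CDKN1A and the distal site of CDKN2A. Within 1 kb of a TSS none of 9 SBNO1 and 12 TAF4 peaks held them, compared with 9.10% and 6.46% of the lists. No p53 decamer lay in any of the 9 promoter windows, where 5.48% of all windows had one. Away from the TSS it lay in the central 300 bp of 2 of the 11 SBNO1 peaks (8.83% of all such SBNO1 peaks), past the end of MYC and at the most distant CDKN2A site, and of 2 of 9 TAF4 peaks (8.39%), past the end of MYC and at the downstream site in CDKN1A.

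To place the 9 genes in their pathway, 60 further genes of its branches were counted in the same way. SBNO1 marked 26 of them (43.3%), TAF4 marked 30 and IgG 2 (3.33%), and 24 had both SBNO1 and TAF4. The shares of all genes were 25.7% for SBNO1, 31.9% for TAF4, 1.41% for IgG and 22.6% for both. Of the other CDK inhibitors, 4 of 5 were marked by both proteins (exact 95% interval of the SBNO1 share 28.4% to 99.5%). CDKN1B, encoding p27, had SBNO1 over 421 bp and TAF4 over 651 bp at the score cap, with 11 SBNO1, 8 TAF4 and 2 IgG peaks in its window. Of all genes, 1.22% had 10 or more SBNO1 peaks and 6.76% had any IgG peak. For TAF4, 0.574% of all genes had 8 peaks, 0.503% had 9 and 0.736% had 10 or more. CDKN2C, encoding p18, had SBNO1 over 523 bp, a promoter shared with FAF1. CDKN2D, encoding p19, had SBNO1 over 488 bp, CDKN2B has been described, and CDKN1C, encoding p57, had none.

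Of 11 genes of the E2F and RB family, E2F3 (SBNO1 over 498 bp, TAF4 over 479 bp) and E2F6 were marked, by both proteins. The share of all genes with both was 22.6%, and the SBNO1 interval of this family ran from 2.28% to 51.8%. The intervals of these groups overlapped, and no difference between groups was tested. Among 7 other cyclins, kinases and CDC25 phosphatases, CDK6 and CDC25A were marked by both and CDC25B by SBNO1 alone (483 bp, score 571), while CCND2, CCND3, CCNE2 and CDK2 had no promoter peak. CDK6, the other kinase of D-type cyclins, had SBNO1 over 602 bp (score 431) and 18 SBNO1, 14 TAF4 and 2 IgG peaks in its window. Of all genes, 1.22% had 10 or more SBNO1 peaks, 0.736% had 10 or more TAF4 peaks and 6.76% had any IgG peak. A longer gene has a longer window, and these shares were not adjusted for length. In the MYC network, 4 of 11 genes had SBNO1 and 6 of 11 had TAF4. The shares of all genes, 25.7% and 31.9%, lay inside the intervals of this group, 10.9% to 69.2% and 23.4% to 83.3%. The widest SBNO1 promoter peak of the MYC network was that of MXD3 (692 bp, score 474), a MAX partner that opposes MYC. TAF4 did not mark MXD3.

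Of the p53 regulators, MDM4 and PPM1D were marked by both proteins and USP7 by neither, and the p53 relatives TP63 and TP73 had no promoter peak of either. MDM4, a relative of MDM2 that also inhibits p53, had SBNO1 over 358 bp (score 650), unlike MDM2. The phosphatase gene PPM1D had SBNO1 over 525 bp (score 571). Of 20 p53 targets, SBNO1 marked 10 and TAF4 13, where the shares of all genes were 25.7% and 31.9%. The widest SBNO1 peak among them was at RRM2B (813 bp, TAF4 1240 bp), a ribonucleotide reductase subunit for DNA repair. The targets SFN and FDXR also had an IgG peak, of 269 bp (score 747) and 658 bp (score 342), which overlapped the SBNO1 and TAF4 peaks there, so that background was measured at the same place.

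**Figure D4:**
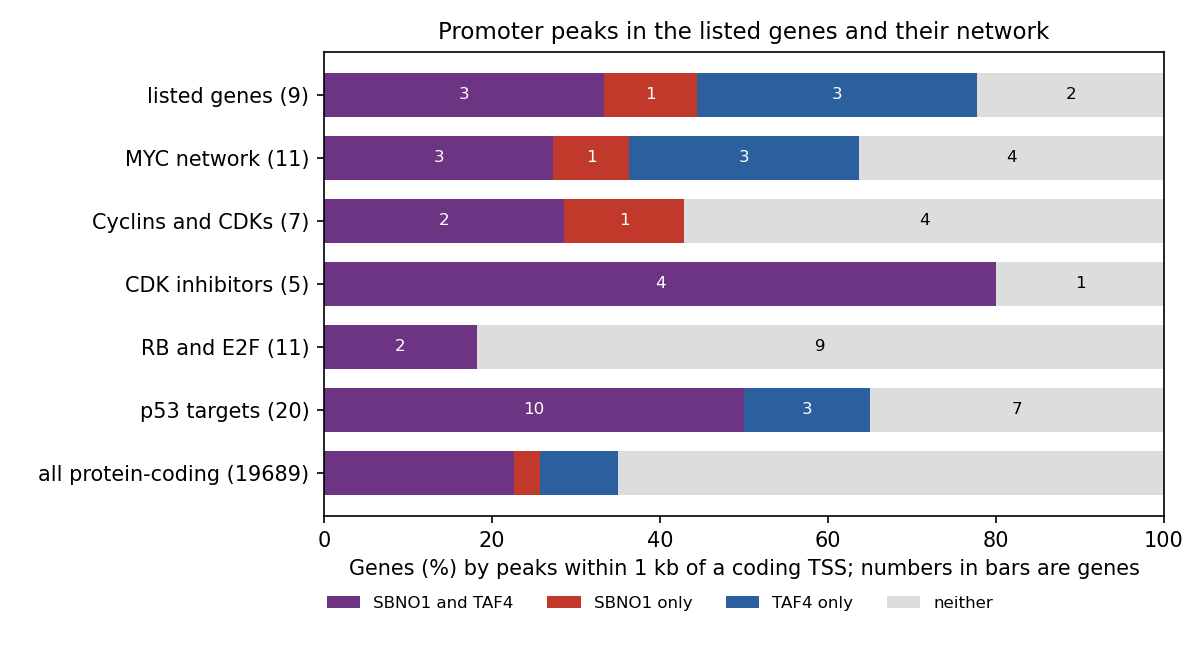
Stacked bars of the percentage of genes with promoter peaks of SBNO1 and TAF4, SBNO1 only, TAF4 only or neither, for the 9 genes, 5 groups of further pathway genes and all 19689 protein-coding genes; group sizes stand in brackets and numbers in the bars are genes. Both proteins marked 4 of 5 other CDK inhibitors and 2 of 11 genes of the E2F and RB family, where the share of all genes was 22.6%.

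Promoter peaks were also counted at a few marker genes of cell types. SBNO1 marked KRT19, SOX9 and EPCAM of 5 cholangiocyte genes and TAF4 all 5, IgG none. The shares of all genes were 25.7%, 31.9% and 1.41%. Of 4 hepatocyte genes only SERPINA1 was marked, by TAF4, and of the leukocyte genes PTPRC and CD3E neither. COL1A1, 1 of 2 fibroblast genes, was marked by both proteins. With 2 to 5 genes per cell type, these counts do not establish the identity of the cells.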

How the data were processed

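ChIP-seq had been done in HuCCT1 cells with an enzymatic kit, 1 pooled library per antibody. According to the study's methods, short reads of one end went through ktrim for trimming, bowtie2 for alignment (GRCh38) and normR for peak calling. The submitters' processing notes name Bowtie2 2.5.4 and Genrich 0.6.1, so the peak caller is uncertain. The deposited score is the authors' whole number capped at 1000. Its scaling, the threshold, duplicate handling and the use of IgG as control are not given in the sources used here.

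Peaks were taken unfiltered and compared with coding TSS of GENCODE 44 (78567 TSS) in Python 3.11.15, with exact intervals from SciPy 1.17.1. A promoter peak lay within 1 kb of any TSS, measured from its edge, and counted for every gene in reach. Motifs (E-box, E2F, AP-1, ETS, KLF/SP, NFY, TATA, p53 decamer) were exact matches on both strands. Functions were tested on simulated data.

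The 9 genes, pathway list and markers were chosen with earlier results of these data known. Further genes were named by rule: the widest SBNO1 promoter peak per group, any IgG promoter peak, all genes of groups of 7 or fewer, and sharers of a promoter peak. One gene of the pathway list stays in its counts but is not reported here. E2F6 was named after its values were seen. The 3 genes most similar to CDKN2A in peak counts were not named because 4 were tied. Alternatives were other distances, 1 TSS per gene, a score filter, removal of peaks overlapping IgG, and other overlap and motif windows.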

Additional observations from a re-analysis of the deposited data

How the results depend on the processing

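With 1 library per antibody no value has a replicate error, and an unlisted peak may be a matter of depth. No paired analysis was possible because there was 1 library of each kind. Of 75 alternatives, 60 kept a count within 1.5 times its value or a share within its interval, and 15 moved. A filter at the median score of each list left 0 of the 9 genes with SBNO1, 4 with TAF4 and 0 with both proteins. Of the 60 pathway genes, it left 14 with SBNO1, 20 with TAF4, 10 with both and 0 with IgG. In the windows, 8 SBNO1 and 10 TAF4 peaks were left. That filter removes wide peaks more than narrow ones at the same product of width and score. A distance of 3 kb gave 5 of the 9 genes with both proteins and 4 pathway genes with IgG. It added CCND1 and CDKN1A to the SBNO1 genes. With 1 TSS per gene, CDKN2A was lost from both lists. Flanks of 100 kb held 33 SBNO1 and 2 IgG peaks, and flanks of 500 kb, chosen after seeing the data, held 144 SBNO1, 110 TAF4 and 11 IgG peaks. A promoter window centred on the peak left 0 genes with an E-box instead of 1.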
